A study of Rattus norvegicus with 180 samples.

Results

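rno-miR-103 and rno-miR-107 are a pair of rat microRNAs (miRNAs), short RNAs that lower the output of messenger RNAs to which they bind. They were found by their names in the scanner output and in the deposited signal table, which gave 2 members among the 717 miRNAs of the array design, and each was measured by 2 probe sequences of 10 spots. The arrays came from male Sprague-Dawley rats, an outbred laboratory strain, at 10 weeks of age. Rats 4, 5 and 6 were perfused with saline to wash out blood and gave 55 organs each. Rats 1, 2 and 3 were not perfused and gave liver, kidney, lung, heart atrium and heart interventricular septum (15 arrays). Every array was a 1-color array hybridized with 0.1 µg of Cy3-labelled RNA of 1 organ of 1 animal. The animal was therefore the replicate, and by the array titles n was 3 for each organ and condition. For 8 arrays titled as rat 5 another label gives rat 6. These were medulla oblongata, pituitary gland, all spinal cord levels, and femoris, gastrocnemial and soleus muscle. By that label each of these organs would come from 2 animals.

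Both miRNAs lie inside genes for pantothenate kinases, the enzymes that start the synthesis of coenzyme A, on which fatty acid and sugar metabolism depend. The pair has been linked to insulin sensitivity in liver and fat, with caveolin-1, a membrane protein close to the insulin receptor, among the described targets. A miRNA recognises its targets mainly through its seed, which is the stretch from base 2 to base 8.

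The mature sequences are shown here because the members differ at a single base outside the seed. They were taken from RefSeq (build GRCr8), in which both members were matched by name, and the seed is in capitals.
rno-miR-103: aGCAGCAUuguacagggcuauga
rno-miR-107: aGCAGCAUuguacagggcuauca
Both are 23 bases long and are identical at 22 positions. The difference, counted from the 5′ end of rno-miR-103, was G22C, near the 3′ end. Of the 724 mature rat sequences in the RefSeq table, 2 had this seed, and these were the members. rno-miR-103 is encoded by Mir103a1 (chr10:20748474-20748559, plus strand), within the span of Pank3, and by Mir103a2 (chr3:138963227-138963312, plus strand), within the span of Pank2. rno-miR-107 is encoded by Mir107 (chr1:241750418-241750504, minus strand), within the span of Pank1. Both miR-103 hairpins hold the same mature sequence, so the array could not tell their products apart. The hairpins are shown with the mature sequence in capitals, because the rest of each hairpin differs between the genes although the capital parts differ at 1 base only.
Mir103a1: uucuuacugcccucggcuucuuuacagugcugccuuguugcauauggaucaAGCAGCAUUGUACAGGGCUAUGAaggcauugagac
Mir103a2: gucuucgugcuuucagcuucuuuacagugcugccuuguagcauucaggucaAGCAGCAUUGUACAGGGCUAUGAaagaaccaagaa
Mir107: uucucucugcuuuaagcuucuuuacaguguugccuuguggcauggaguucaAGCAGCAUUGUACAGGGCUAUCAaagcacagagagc
In each hairpin the mature sequence ran from base 52 to base 74, in the arm near the 3′ end. The opposite strands, rno-miR-103-1*, rno-miR-103-2* and rno-miR-107*, were each detected on 0 of 180 arrays.

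The signals below are background-corrected spot intensities in arbitrary units, scaled so that the 75th percentile over 37 miRNAs detected on all arrays had a mean of 2118. Neither member was among these 37 miRNAs. Detection on an array required that the scanner software marked more than 50% of the used spots of a miRNA as well above background. The arrays detected 86 to 244 miRNAs (median 161.5), and no miRNA spot was saturated. Before scaling the 75th percentile ran from 68 to 6343, and the pancreas arrays were the dimmest, at 68 to 121, while liver, at 454 to 569, came next by its mean, although single parotid gland (336) and ventral prostate (447) arrays were dimmer. The labelled organs carried high levels of their marker miRNAs. The liver markers miR-122, miR-192 and miR-194 summed to 104887 to 119166 in liver, mostly from miR-122 (mean 107094, rank 1 of 55). Liver ranked 7 of 55 for miR-192 (5175) and for miR-194 (1086), so these do not single it out. The 4 skeletal muscle markers summed to 61991 to 170324 in the limb muscles, and the 5 brain markers to 9601 to 25206 in the brain regions. In the Harderian gland the skeletal muscle markers ran from 87.5 in one rat to 3396 in another.

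Both members were detected in nearly every organ. Each was detected on 177 of 180 arrays, and the exceptions were the 3 pancreas arrays. In pancreas 0 of 20, 0 of 20 and 0 of 19 spots for rno-miR-103 and 2 of 18, 0 of 20 and 0 of 19 spots for rno-miR-107 were well above background, so pancreas gives only a bound. The limma F test over 55 organs called both members (F = 73.4 and 65.3, adjusted p = 6.22e-67 and 2.96e-64). It called 99.7% of the 345 miRNAs tested, so a difference between organs as such is not a property of this pair.

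The spread over organs was narrow next to that of tissue markers. For rno-miR-103 the median organ mean was 478, and 38 of 55 organs lay within 2-fold of it. The highest organ mean was that of the pectoral spinal cord (1177 ± 30.8, SD, n = 3), followed by hippocampus (1157 ± 286), cervical spinal cord (1141 ± 38.5), thalamus (1068 ± 108) and testis (1057 ± 50.6). The first of these exceeded the second by 1.02-fold, and the rats of neighbours in this order overlapped, while the highest testis lay below the lowest cervical and pectoral spinal cord. The lowest organ with detected signal was the ventral prostate (161 ± 9.93), 7.29-fold under the highest. Pectoral spinal cord exceeded pancreas by at least 6.14-fold.

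For rno-miR-107 the median organ mean was 575, and 44 of 55 organs lay within 2-fold of it. One organ stood far above the others. In the Harderian gland, a lipid-secreting gland behind the eye, rno-miR-107 read 3324, 3232 and 2947 in rats 4, 5 and 6 (mean 3168). The next organ, testis, read 1867, 1712 and 1943 (mean 1841), so the lowest Harderian gland lay above the highest testis and the means differed by 1.72-fold. Hippocampus followed at 1326 ± 347, brown adipose tissue at 1264 ± 191 and thalamus at 1184 ± 46.2. The ventral prostate was again the lowest organ with detected signal (166 ± 2.47), 19-fold under the Harderian gland, and pancreas lay at least 16.5-fold under the Harderian gland.

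Neighbours in these orders mostly could not be separated. For rno-miR-103 the rats of neighbouring organs overlapped in all but 2 of 53 steps between organs with detected signal, which were optic nerve above colon and pituitary gland above thymus. For rno-miR-107 they overlapped in all but 3 of 53 steps, which were Harderian gland above testis, testis above hippocampus, and parotid gland above ventral prostate. Pancreas has no place in either order, because the lowest detected signals of its arrays (115 to 273) span the level of the ventral prostate. The coefficient of variation between the 3 rats of an organ had a median of 9.14% for rno-miR-103 (1.22 to 29.2%) and 9.19% for rno-miR-107 (1.48 to 34.3%). Under 6 other scalings the Harderian gland kept rank 1 for rno-miR-107. Other ranks moved: for rno-miR-103 white adipose tissue, at rank 24 here, ran from 1 to 24, and thalamus, at rank 4 here, from 4 to 34.

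**Figure D1:**
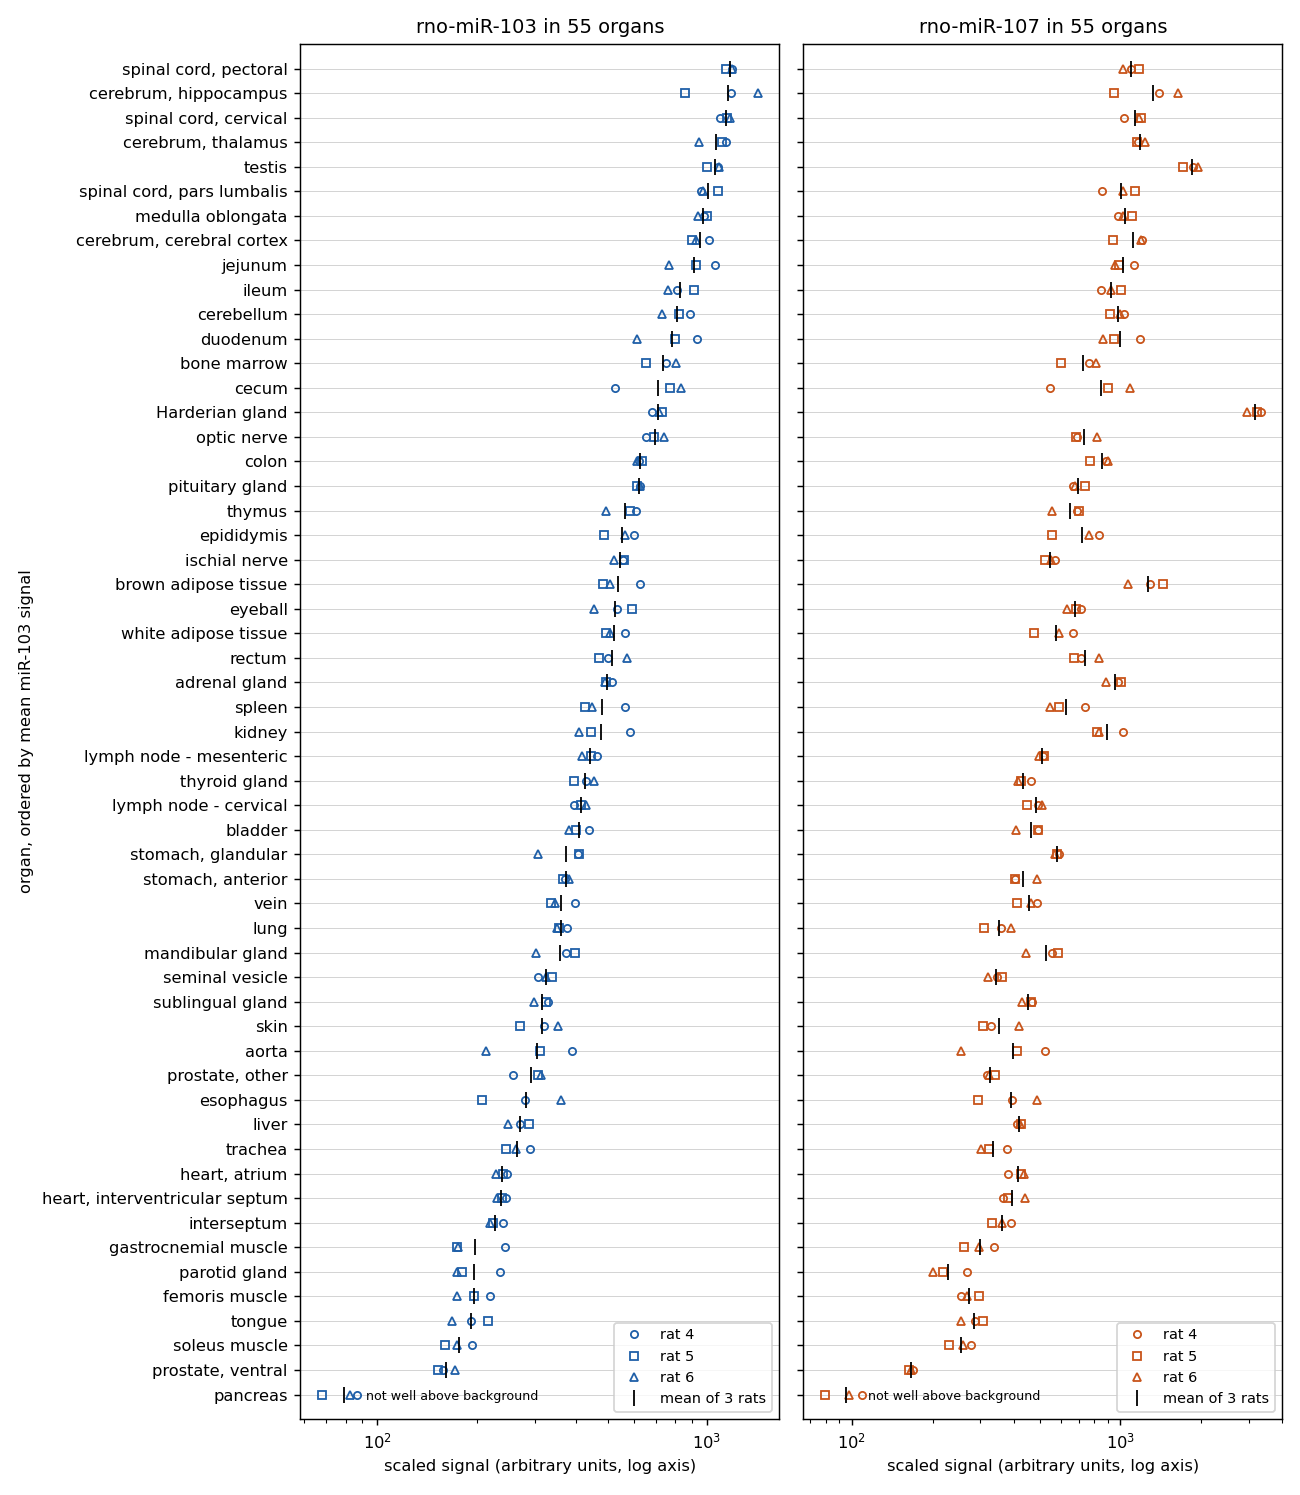
Scaled signal of rno-miR-103 (left) and rno-miR-107 (right) in 55 organs on a log axis, with 1 symbol per perfused rat and a bar at the mean of 3 rats. Spinal cord and most brain regions lie near the top of the left panel at the scaling used here, together with testis, jejunum and ileum, and in the right panel the Harderian gland (mean 3168) lies apart from testis (mean 1841) and all other organs.

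Liver lay below the median organ for both members, at rank 44 of 55 for rno-miR-103 and 38 for rno-miR-107. The rank for rno-miR-107 was 35 with the 75th percentile over all miRNAs and 52 without scaling. rno-miR-103 read 271, 289 and 249 in the livers of rats 4, 5 and 6 (270 ± 20.1), and rno-miR-107 read 411, 426 and 424 (420 ± 8.21). The study design allows each tissue to be set against the mean of the organs outside it, and in a limma fit over all perfused arrays rno-miR-103 was 1.67-fold lower in liver than in the other organs (log2 difference -0.74, SE 0.10, adjusted p = 2.71e-10). rno-miR-107 was 1.38-fold lower (-0.46, SE 0.11, adjusted p = 0.000133). The difference pointed the same way within each of the 3 rats, from -0.82 to -0.61 for rno-miR-103 and from -0.54 to -0.40 for rno-miR-107. The fit counts the organs of a rat as separate samples, here and for the other tissues, so its p-values do not treat the rat as the unit. At an adjusted p under 0.05 the liver comparison called 75.4% of the 345 miRNAs, with a median log2 difference of -0.23 and a median size of 0.59. The call of both members was lost with another background correction (normexp, adjusted p = 0.115 and 0.233), and that of rno-miR-107 also with scaling over all miRNAs of the design (adjusted p = 0.154) and in the authors' table (adjusted p = 0.598). In the other direction the liver differences grew to -1.46 and -1.18 with scaling by total signal and to -2.48 and -2.20 without scaling, so their size depends on the scaling. As in every bulk organ, fewer cells of a type and less RNA per cell cannot be told apart.

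Fat taken as 1 tissue lay above the other organs. White and brown adipose tissue passed the test against each other for rno-miR-107 but not for rno-miR-103. In white adipose tissue, which stores fat, rno-miR-103 read 566, 493 and 508 (522 ± 38.5). In brown adipose tissue, which burns fat to make heat, it read 627, 483 and 507 (539 ± 77). The ranges overlapped, and the log2 difference of white minus brown was -0.04 (95% confidence interval -0.32 to 0.25, adjusted p = 1). rno-miR-107 read 663, 475 and 589 in white adipose tissue (575 ± 95) and 1284, 1444 and 1064 in brown adipose tissue (1264 ± 191). All 3 brown samples lay above all 3 white ones, and rno-miR-107 was 2.2-fold lower in white than in brown (log2 difference -1.14, SE 0.16, adjusted p = 1e-09). Within rats 4, 5 and 6 the difference was -0.95, -1.60 and -0.85. This comparison called 23.5% of the miRNAs tested.

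The scaling bears on this pair of organs. The rno-miR-107 call was lost without scaling (-0.06) and in the authors' table (-0.67, adjusted p = 0.266), and rno-miR-103 then read higher in white than in brown adipose tissue (1.04, adjusted p = 0.0404, and 0.43, adjusted p = 0.0835). With quantile normalization rno-miR-103 read 0.62 higher in white adipose tissue (adjusted p = 0.00111) and rno-miR-107 differed by -0.47 (adjusted p = 0.0168). White adipose tissue was brighter before scaling (75th percentile 2305 to 3565) than brown adipose tissue (1180 to 1509). The gap between the members within an array, which no factor per array can change, is taken up below. The fat samples held other cells. The erythroid miRNAs miR-451 and miR-144 summed to 574 to 623 in brown and 248 to 256 in white adipose tissue, with both detected on all 3 brown arrays and 1 of them on all 3 white arrays. The 4 leukocyte miRNAs summed to 1047 to 1266 in brown and 587 to 681 in white. The skeletal muscle markers summed to 151 to 1620 in brown and 172 to 204 in white. The part of blood and muscle in the difference was not tested.

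Set against all other organs, fat as a whole read 1.19-fold higher for rno-miR-103 (log2 difference 0.26, SE 0.07, adjusted p = 0.00102) and 1.49-fold higher for rno-miR-107 (0.58, SE 0.08, adjusted p = 1.62e-10). For rno-miR-107 the 2 kinds of fat stood apart, with brown adipose tissue at rank 4 of 55 and white adipose tissue, at 575, the median organ (rank 28). The direction for fat as a whole held within each of the 3 rats (0.17 to 0.37 and 0.48 to 0.66). The comparison called 80.6% of the miRNAs tested, with a median size of 0.42. The rno-miR-103 call was lost with the normexp background (0.08, adjusted p = 0.521) and with slide as a fixed block (0.25, adjusted p = 0.0526). The members had larger values, 1.01 and 1.33, with the 75th percentile over all miRNAs. They were also larger in the authors' table (1.02 and 1.31), with total signal (0.63 and 0.96) and without scaling (0.46 and 0.79). With quantile normalization they were 0.17 (limma adjusted p = 0.0459) and 0.60.

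At the scaling used here skeletal muscle held the lowest levels among the 4 tissues. Without scaling liver read below it, by log2 differences of -0.81 for rno-miR-103 and -0.70 for rno-miR-107. rno-miR-103 read 219, 196 and 174 in femoris muscle, 244, 175 and 176 in gastrocnemial muscle and 194, 160 and 175 in soleus muscle, a slow postural muscle. rno-miR-107 read 256, 298 and 268 in femoris, 337, 261 and 297 in gastrocnemial and 279, 230 and 259 in soleus muscle. The 3 muscles overlapped for both members. Against the other organs rno-miR-103 was 2.48-fold lower (log2 difference -1.31, SE 0.06, adjusted p = 7.68e-41) and rno-miR-107 2.19-fold lower (-1.13, SE 0.07, adjusted p = 2.23e-32). Within the 3 rats, by the titles, the difference ran from -1.39 to -1.16 and from -1.16 to -1.10. The other organs here include tongue (192 for rno-miR-103) and interseptum (228), which also read low. The comparison called 87.2% of the miRNAs tested, with a median size of 0.51, and both members kept their direction and call under all 25 alternatives (-2.05 to -0.75 and -1.86 to -0.60). Soleus and gastrocnemial muscle did not pass the test for either member, with intervals of -0.43 to 0.13 and -0.53 to 0.09 for soleus minus gastrocnemial, in a comparison that called 10.1%. The sign of that difference turned under 5 other scalings, and with scaling by total signal rno-miR-103 was called higher in soleus muscle (0.43, adjusted p = 0.0273).

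Heart shared the low rno-miR-103 of skeletal muscle, to a smaller extent. rno-miR-103 read 247, 240 and 229 in atrium and 246, 239 and 230 in interventricular septum. rno-miR-107 read 381, 428 and 436 in atrium and 364, 381 and 441 in septum. Against the other organs the log2 differences were -0.94 (SE 0.07, adjusted p = 7.31e-23) and -0.53 (SE 0.08, adjusted p = 2.24e-09), in a comparison that called 86.4%. Within the 3 rats they ran from -0.95 to -0.90 and from -0.70 to -0.41. These directions depended on the scaling. The rno-miR-107 call was lost without scaling (-0.10, adjusted p = 0.651) and with quantile normalization (-0.11, adjusted p = 0.222). Both directions turned with the 75th percentile over all miRNAs (0.53 and 0.94) and in the authors' table (0.34 and 0.71), both with adjusted p under 0.05, while the median over all tested miRNAs shifted by 0.64 and 0.46 in the same comparison, and that over the 144 miRNAs detected on at least 50% of the arrays by 1.49 and 1.25. Against skeletal muscle, heart read higher for rno-miR-103 (0.34, SE 0.09, adjusted p = 0.00161) and for rno-miR-107 (0.56, SE 0.10, adjusted p = 1.17e-06), where 32.2% of the miRNAs were called. The rno-miR-103 call against skeletal muscle was lost with the normexp background (0.06), with slide as a fixed block (-0.19) and without rat 5 (0.29, adjusted p = 0.0844), and the rno-miR-107 call with slide as a fixed block (0.38).

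Brain was high for both members. rno-miR-103 read 1019, 905 and 929 in cerebral cortex, 1184, 858 and 1428 in hippocampus, 1146, 1113 and 945 in thalamus, 890, 821 and 729 in cerebellum and 978, 1001 and 941 in medulla oblongata. rno-miR-107 read 1203, 938 and 1191 in cerebral cortex, 1393, 950 and 1635 in hippocampus, 1166, 1149 and 1236 in thalamus, 1027, 916 and 999 in cerebellum and 981, 1102 and 1025 in medulla oblongata. Every brain sample lay above every liver, white adipose, limb muscle and heart sample for its member. Against the other organs rno-miR-103 was 2.38-fold higher (log2 difference 1.25, SE 0.05, adjusted p = 2.76e-49) and rno-miR-107 2.07-fold higher (1.05, SE 0.05, adjusted p = 7.38e-39). Within the 3 rats, by the titles, the difference ran from 1.20 to 1.28 and from 0.94 to 1.16. As in the other tissues, the fit counts the organs of a rat as separate samples. The comparison called 95.4% of the miRNAs tested, with a median size of 0.77. Direction and call held under all 25 alternatives, with values from 0.38 to 1.87 for rno-miR-103 and from 0.17 to 1.67 for rno-miR-107, and both lowest values came from the 75th percentile over all miRNAs.

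The brain regions could not be ordered. At the scaling used here no member passed the test in cerebellum, hippocampus, thalamus or medulla oblongata against cerebral cortex, comparisons that called 38.3%, 7.83%, 24.6% and 24.1% of the miRNAs. The log2 differences ran from -0.23 in cerebellum (interval -0.51 to 0.06) to 0.25 in hippocampus (-0.03 to 0.54) for rno-miR-103, and from -0.17 (-0.48 to 0.14) to 0.23 (-0.08 to 0.54) for rno-miR-107. Other scalings did make calls here. With the 75th percentile over all miRNAs cerebellum was called above cortex for both members (0.65 and 0.71, adjusted p = 0.0195 and 0.00889), and with quantile normalization rno-miR-107 was called below cortex in cerebellum (-0.39, adjusted p = 0.0435) and medulla oblongata (-0.45, adjusted p = 0.0268). Hippocampus varied most between rats of the 5 regions, and rat 5 was the low one for both members. Hippocampus minus cortex was 0.42 and 0.33 without rat 5 and 0.07 and 0.12 without rat 6, and was not called in either case.

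**Figure D2:**
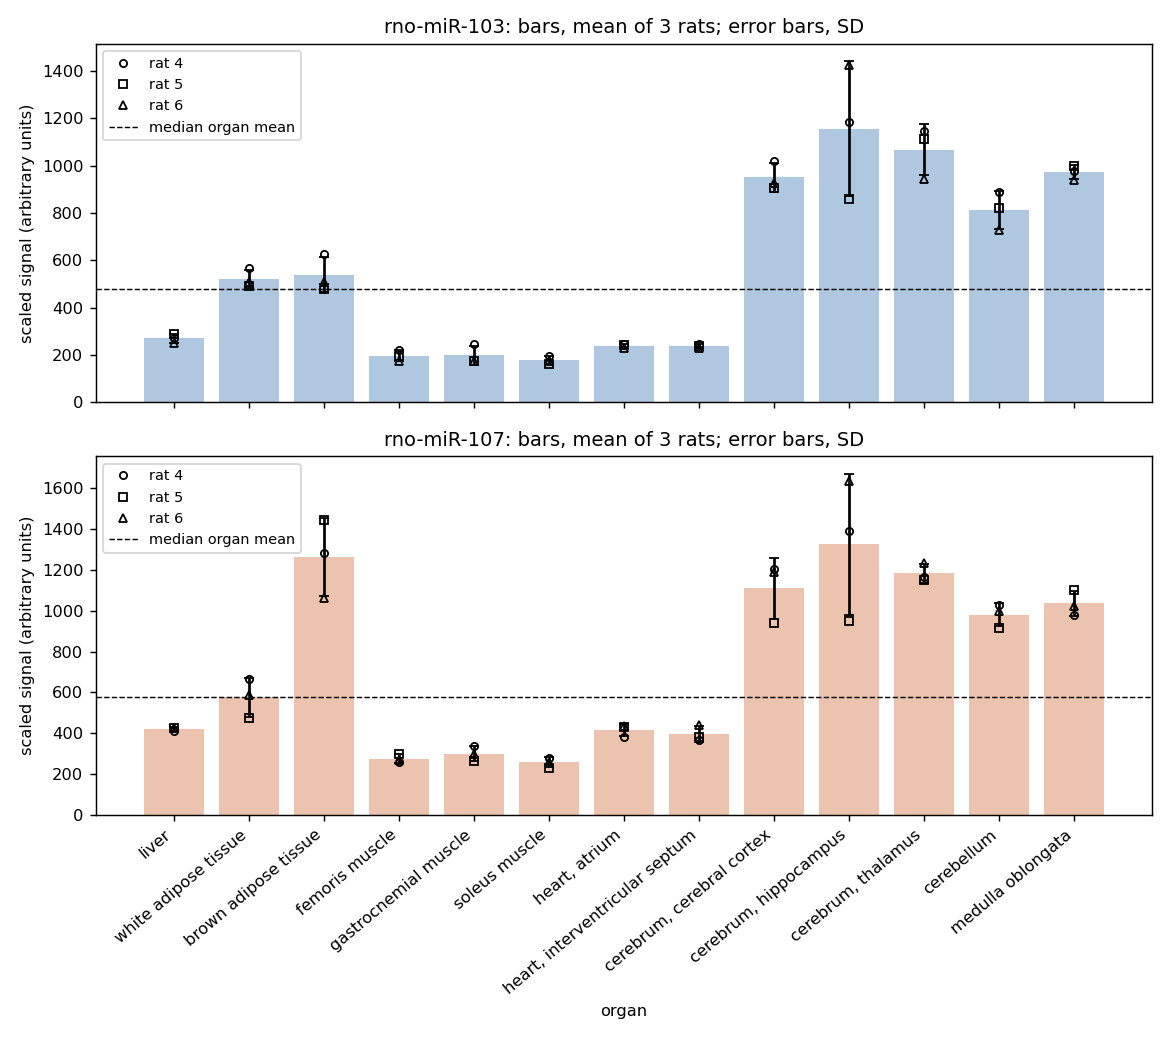
Scaled signal of rno-miR-103 (top) and rno-miR-107 (bottom) in liver, fat, skeletal muscle, heart and brain organs; bars are the mean of 3 rats, error bars the SD, symbols the rats, and the dashed line the median organ mean (478 and 575). Brain lies above the line and liver, heart and skeletal muscle below it in both panels, while brown adipose tissue reaches 1264 in the lower panel only.

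Between the means of the 4 tissues the members had the order brain, fat, liver, skeletal muscle at the scaling used here, and each of the 6 pairs was called for both members. Liver was lower than fat by a log2 difference of -0.97 for rno-miR-103 and -1.01 for rno-miR-107 (adjusted p = 2.44e-11 and 1.53e-10), where 38.6% of the miRNAs were called, and the rno-miR-103 call was lost with the normexp background (-0.34, adjusted p = 0.0973). Liver exceeded skeletal muscle by 0.51 and 0.61 (adjusted p = 7.92e-05 and 1.41e-05), where 49.6% were called, and this direction turned without scaling (-0.81 and -0.70) and, for rno-miR-103, with slide as a fixed block (-0.01). The rno-miR-103 call was also lost with the 75th percentile over all miRNAs (0.30), quantile normalization (0.26) and the authors' table (0.29), and the rno-miR-107 call with the authors' table (0.39) and slide as a fixed block (0.43). Liver was lower than brain by -1.86 and -1.41 (adjusted p = 8.39e-32 and 1.42e-20), with 64.6% called, and the rno-miR-107 call was lost in the authors' table (-0.50, adjusted p = 0.12). Fat exceeded skeletal muscle by 1.48 and 1.62 (adjusted p = 1.68e-29 and 1.38e-29), with 36.5% called. Fat was lower than brain by -0.89 and -0.40 (adjusted p = 5.22e-18 and 6.31e-05), with 64.1% called, and this pair turned to 0.63 and 1.13 with the 75th percentile over all miRNAs and to 0.44 and 0.93 in the authors' table. With scaling by total signal the rno-miR-107 call was lost (-0.15, adjusted p = 0.115). For rno-miR-107 the fat mean joins white adipose tissue (575) with brown adipose tissue (1264), and the brown mean alone lay above those of thalamus (1184), cortex (1111), medulla oblongata (1036) and cerebellum (981). Skeletal muscle was lower than brain by -2.38 and -2.02 (adjusted p = 2e-57 and 4.6e-47), the widest gap of the 6, with 65.2% called.

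**Figure D3:**
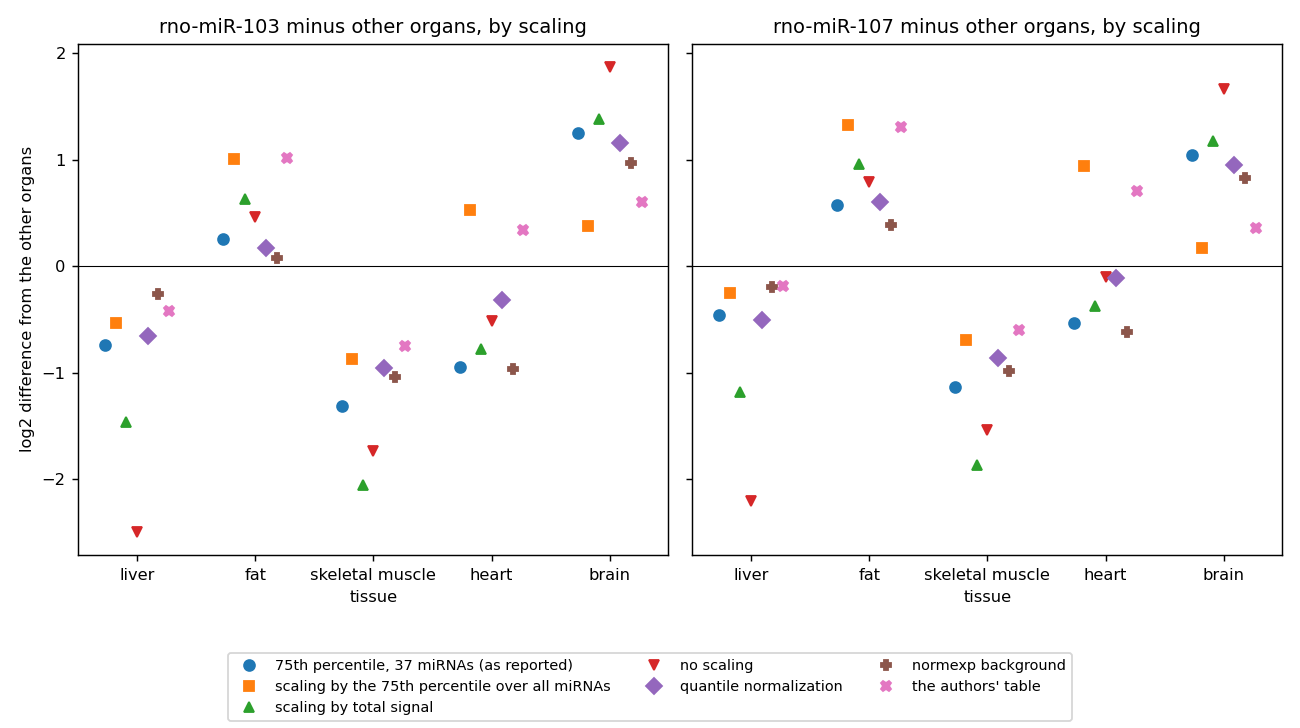
Log2 difference of 5 tissues from the other organs for rno-miR-103 (left) and rno-miR-107 (right) under 7 ways to scale or correct the arrays. Skeletal muscle lies below 0 and brain above 0 under each of them, while heart crosses 0.

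The members moved together over organs, and their gap was the one measure that a factor per array cannot change. Their log2 organ means had a Pearson r of 0.91 and a Spearman rho of 0.94 over 55 organs. These are given as a description because both members were read on the same arrays. The 55 organs include pancreas, the lowest for both members and not well above background, and no value without it is given. After each organ's mean was subtracted, the perfused arrays still had an r of 0.78 between the members. Because different probes differ in brightness, the gap (log2 rno-miR-107 minus log2 rno-miR-103) is given relative to the median organ. That organ was pancreas, where neither member was well above background, and the median over the other 54 organs differed from it by -0.02, which is the amount by which that choice of reference would move each gap. The gap varied between organs with an SD of 0.37, against a median SD of 0.11 between the rats of an organ. Permutation of the organ labels over the perfused arrays (100000 resamples) gave F = 27.6 and p = 1e-05, the smallest p that these resamples can give. The p was the same with the labels permuted within rats, without pancreas (F = 27.6) and without the Harderian gland (F = 16). F was 15.7, 17.4 and 25.3 without rat 4, 5 or 6, 15.9 with the brightest probe sequence, 6.24 with the total gene signal and 2.39 in the authors' table (permutation p = 0.0005), and both of the last were 27.6 without pancreas. No other pair of miRNAs was tested for such a gap. Since 99.7% of the 345 miRNAs differed between organs, the p does not set this pair apart from other pairs.

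Most organs sat close together in this gap, with 33 of 55 within 0.25 of the median, and a few stood above. The Harderian gland led at 2.02, 1.88 and 1.78 in rats 4, 5 and 6 (1.89 ± 0.12, 3.72-fold), and 0 of the 162 arrays of other organs reached its lowest rat. Its rno-miR-103 read 680, 732 and 715, at rank 15 of 55 here, and at ranks 4 to 26 under other scalings. Brown adipose tissue followed at 0.77, 1.32 and 0.80 (0.96 ± 0.30), and only the Harderian gland arrays lay above its lowest rat. Adrenal gland (0.66, 0.76 and 0.59), kidney (0.54, 0.61 and 0.76), testis (0.53, 0.51 and 0.57) and heart atrium (0.36, 0.57 and 0.66) came next, and neighbours in this order overlapped. With quantile normalization testis moved to 0.86 and heart atrium to 0.29, so the order among these organs depends on the processing. These organs were singled out after their values were seen.

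At the other end lay the pectoral spinal cord (-0.39, -0.23 and -0.49), lung (-0.33, -0.46 and -0.11, with a mean of -0.30 that became -0.50 under quantile normalization), bone marrow (-0.25, -0.38 and -0.25) and the other levels of the spinal cord, whose rats overlapped. White adipose tissue lay at -0.04, -0.32 and -0.05, so white and brown adipose tissue did not overlap in the gap. Pancreas, where neither member was well above background, lay at 0.06, -0.04 and -0.02.

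The gap was also compared between liver, fat, skeletal muscle and brain with 1 mean per rat and tissue. It was 0.38 ± 0.11 in liver, 0.41 ± 0.07 in fat, 0.28 ± 0.13 in skeletal muscle and -0.08 ± 0.10 in brain (SD, n = 3). The fat value is the mean of brown adipose tissue (0.96) and white adipose tissue (-0.14), which did not overlap. The 3 pairs with brain did not overlap, with differences of 0.46 for liver, 0.49 for fat and 0.36 for skeletal muscle, each with an exact permutation p of 0.1 (two-sided), the smallest that 3 against 3 can give, and 0.2 after Benjamini-Hochberg adjustment over the 6 pairs. This test treats the tissues as separate groups although they came from the same rats. Within rats 4, 5 and 6 the difference from brain was 0.46, 0.45 and 0.47 for liver, 0.49, 0.65 and 0.34 for fat, and 0.26, 0.46 and 0.35 for skeletal muscle. White adipose tissue alone overlapped brain, with within-rat differences of 0.09, -0.16 and -0.09, while brown adipose tissue alone exceeded it by 0.89, 1.47 and 0.77. Liver and fat differed by -0.04 (exact p = 0.6), liver and skeletal muscle by 0.10 (exact p = 0.5) and fat and skeletal muscle by 0.14 (exact p = 0.3), and these pairs overlapped. White adipose tissue alone lay below liver by -0.37, -0.62 and -0.56 in rats 4, 5 and 6, and brown adipose tissue alone above it by 0.44, 1.02 and 0.30. The liver gap of 0.38 was 0.17 with the normexp background, 0.21 with quantile normalization and 0.25 with the brightest probe sequence.

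**Figure D4:**
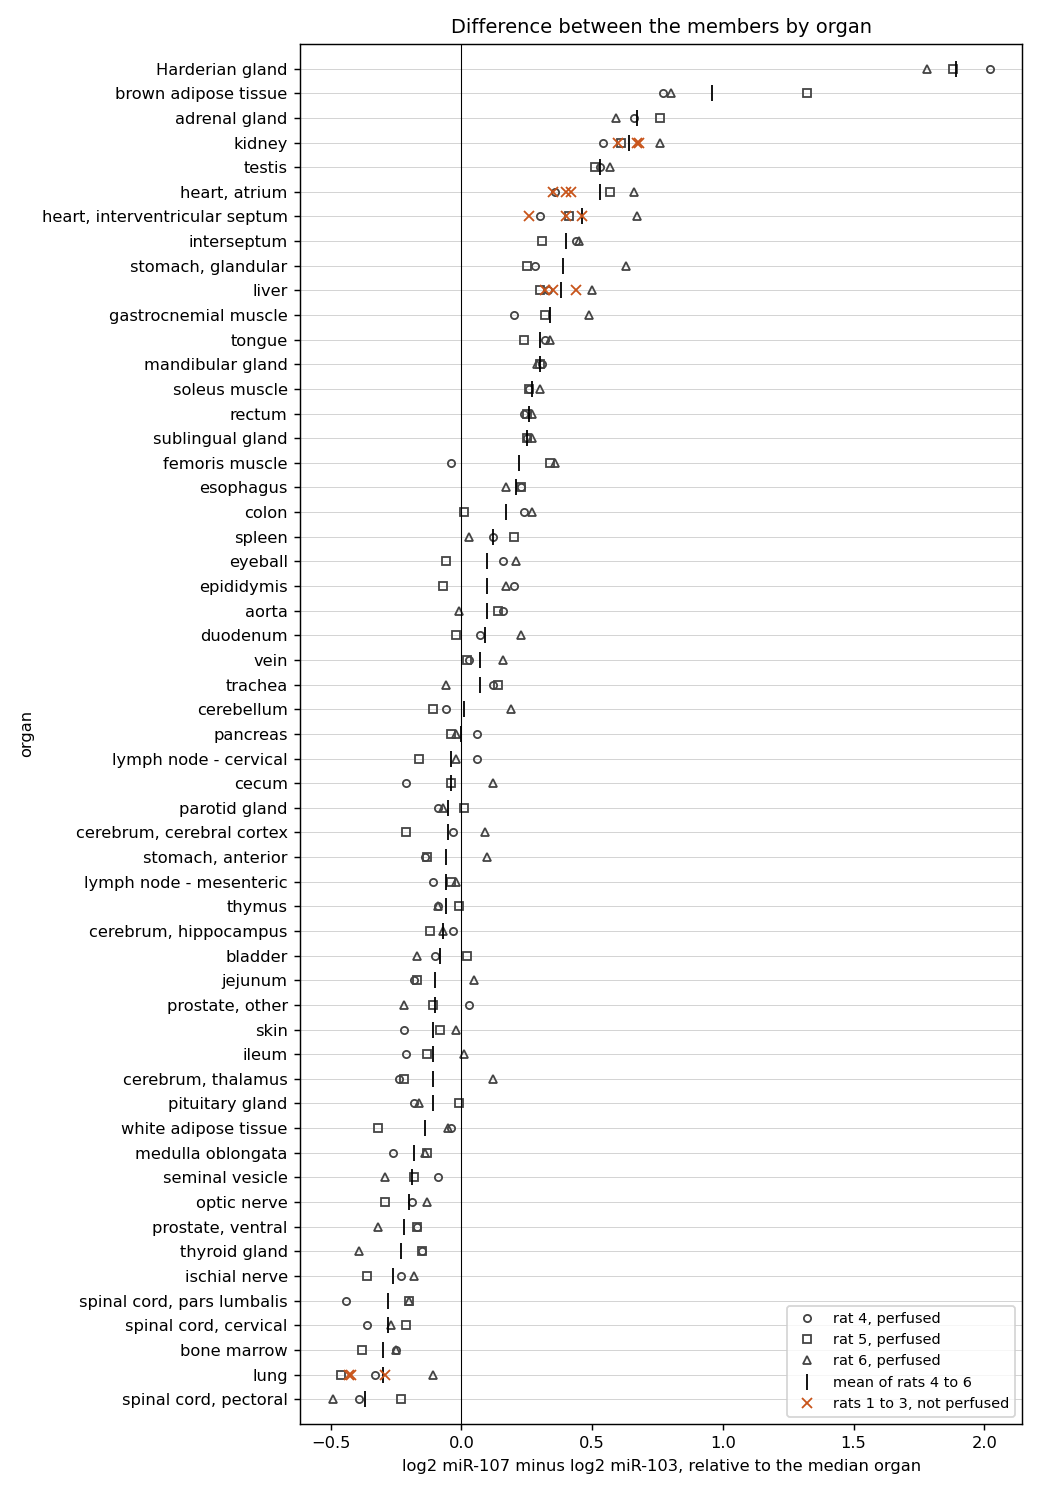
Log2 rno-miR-107 minus log2 rno-miR-103, relative to the median organ, for 55 organs, with 1 symbol per perfused rat, a bar at their mean, and crosses for the not perfused rats of 5 organs. The Harderian gland (1.89) and brown adipose tissue (0.96) lie to the right of all other organs, and spinal cord, bone marrow and lung lie at the left end.

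The probe sequences gave the gap separately. Over the perfused arrays the 2 probe sequences of rno-miR-103 had a Pearson r of 0.969 and those of rno-miR-107 one of 0.973, while the 4 pairs across members had r from 0.838 to 0.922. In the Harderian gland the 4 pairs gave gaps of 1.68 to 2.28 relative to the median organ, and in brown adipose tissue 0.77 to 1.35. The 2 probe sequences of rno-miR-107 also differed from each other there, by 0.54 in the Harderian gland, 0.50 in brown adipose tissue, 0.51 in adrenal gland and 0.45 in kidney but 0.05 in testis, against 0.03, -0.06, 0.09, -0.08 and -0.11 for those of rno-miR-103. With mature sequences that differ only by G22C, how far a probe for one member binds the other was not tested, and the bases of the probes were not used here.

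Perfused and not perfused organs were compared to ask whether blood left in an organ bears on the measured levels, and no difference passed the test for either member. In livers that were not perfused rno-miR-103 read 295, 274 and 289 against 271, 289 and 249 in perfused livers, and rno-miR-107 read 481, 411 and 441 against 411, 426 and 424. In kidney rno-miR-107 read 987, 907 and 1073 without perfusion and 1019, 815 and 829 with it, and in lung 364, 355 and 364 against 359, 311 and 391. The groups overlapped in these 3 organs for rno-miR-107. In limma fits over 30 arrays the log2 difference of perfused minus not perfused ran from -0.19 (atrium) to -0.08 (septum) for rno-miR-103 and from -0.16 (kidney) to 0.01 (septum) for rno-miR-107, each with an adjusted p of 1. For rno-miR-103 in atrium the interval was -0.42 to 0.04.

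Each single organ called 0% of the 191 miRNAs tested, although limma gave an unadjusted p under 0.05 to 11 miRNAs in liver, 12 in lung, 4 each in kidney and atrium, and 3 in septum. Over the 5 organs the mean difference was -0.12 for rno-miR-103 (SE 0.05, interval -0.23 to -0.02, unadjusted p = 0.0202, adjusted p = 0.405) and -0.06 for rno-miR-107 (SE 0.05, interval -0.16 to 0.03, adjusted p = 0.692), where 1.05% of the miRNAs were called and 18 had an unadjusted p under 0.05. This fit counts the 5 organs of a rat as separate samples. With 1 mean per rat over the 5 organs the differences were the same, with an SE of 0.07 and an interval of -0.29 to 0.04 for rno-miR-103 and an SE of 0.05 and an interval of -0.19 to 0.07 for rno-miR-107. Both then had an adjusted p of 1 in limma (unadjusted 0.121 and 0.278), exact permutation gave p = 0.2 and 0.3 (3 rats against 3, two-sided), and the rats of the conditions overlapped. At the scaling used here rno-miR-103 was lower after perfusion in 5 of 5 organ means. These organs came from the same rats, so they are not separate agreements, and no share over all miRNAs is given. Its difference was 0.04 in septum in the authors' table and 0.06 in lung with the 75th percentile over all miRNAs. The interaction of perfusion and organ was not called for either member (F = 0.172 and 0.376, adjusted p = 1), and limma called 0% of the miRNAs in it, with 6 at an unadjusted p under 0.05. The rats of the conditions differed and 1 of the 23 slides held both, so condition and animal cannot be told apart. The gap between the members in not perfused and perfused organs was 0.65 and 0.64 in kidney, 0.37 and 0.38 in liver, -0.38 and -0.30 in lung, 0.39 and 0.53 in atrium, and 0.37 and 0.46 in septum, with overlapping rats in each.

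**Figure D5:**
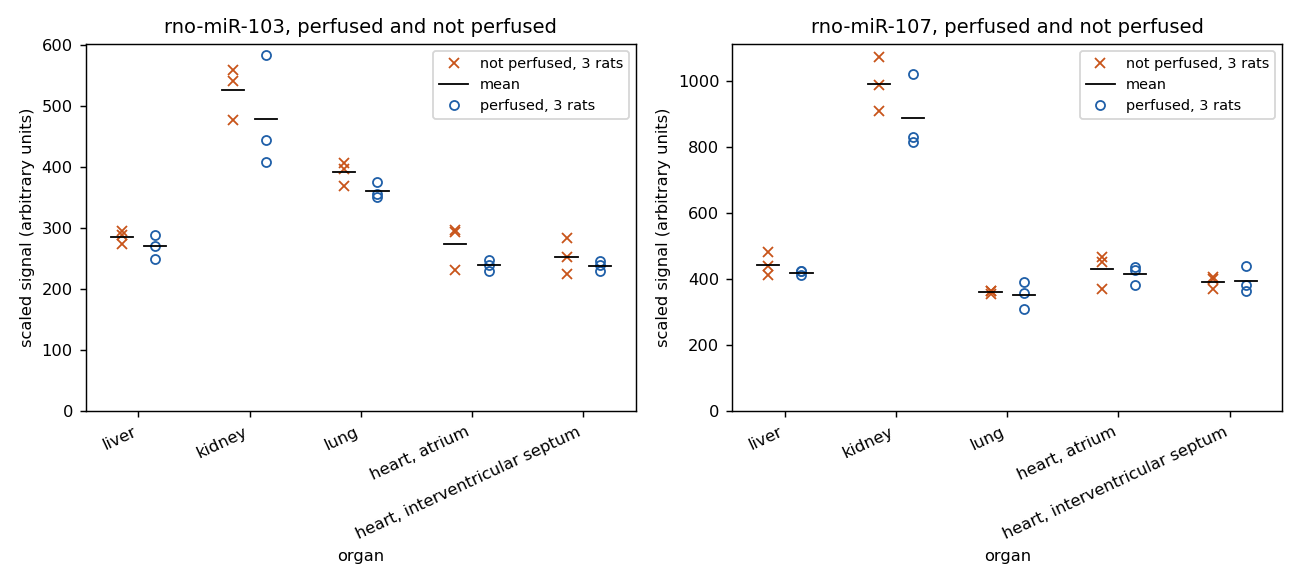
Scaled signal of rno-miR-103 (left) and rno-miR-107 (right) in 5 organs of 3 not perfused rats (crosses) and 3 perfused rats (circles), with lines at the means. The conditions differ by less than the call requires in each organ, while kidney lies above the other 4 organs under both.

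The miRNAs whose organ pattern was most like that of the pair were sought among 130 others detected on all 3 arrays of at least 28 organs. For rno-miR-103 these were, after rno-miR-107, rno-miR-301a (Pearson r 0.80 over 55 organ means), rno-miR-324-5p (0.80), rno-miR-98, a let-7 relative (0.73), and rno-miR-331 (0.71), against a median r of 0.07. For rno-miR-107 they were, after rno-miR-103, rno-miR-324-5p (0.72), rno-miR-301a (0.70), rno-miR-98 (0.62) and rno-miR-331 (0.59). The least like for both were rno-miR-199a-3p (-0.56 and -0.47) and rno-miR-214 (-0.56 and -0.49), which are abundant in connective tissue cells. These values share arrays and scaling, and they include pancreas. The organ means of the members also ran with the number of miRNAs detected in an organ (r 0.65 for rno-miR-103 and 0.51 for rno-miR-107).

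The miR-15/16 family shares part of the seed but is read at a shifted frame, so its members serve as relatives by sequence. The 6 bases that equal bases 2 to 7 of rno-miR-103 are in capitals, and they sit at bases 3 to 8. rno-miR-503, the other relative listed, lacks them.
rno-miR-15b: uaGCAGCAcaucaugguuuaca
rno-miR-16: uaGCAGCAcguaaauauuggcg
rno-miR-195: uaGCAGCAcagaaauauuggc
rno-miR-322: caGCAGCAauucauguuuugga
rno-miR-497: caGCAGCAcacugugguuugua
rno-miR-503: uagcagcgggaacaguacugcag
On the genome these relatives lie as close pairs, rno-miR-15b with rno-miR-16, rno-miR-195 with rno-miR-497 and rno-miR-322 with rno-miR-503. The 6 are therefore not independent of each other, and their counts are given at the scaling used here only. At that scaling these relatives did not follow the pair in brain. There 0 of 6 rose and 6 fell, with a median of -0.51 beside -0.15 over all 345 miRNAs tested, of which 137 rose and 192 fell, led by rno-miR-15b (-1.92, SE 0.07, adjusted p = 2.06e-49) and rno-miR-16 (-0.80, SE 0.05, adjusted p = 1.81e-27). The smallest falls were those of rno-miR-195 (-0.25) and rno-miR-503, which was detected on 0 of 15 brain arrays and lay at the floor of the scale, so that its difference is only a bound. In skeletal muscle 3 rose and 2 fell, with rno-miR-322 (1.40) and rno-miR-195 (1.24) at the top and rno-miR-15b (-0.88) and rno-miR-16 (-0.21) at the bottom, and a median of 0.52 beside -0.24 (76 rose and 225 fell over all tested). In fat 4 rose and 1 fell, from rno-miR-15b (-0.35) and rno-miR-503 (0.63) to rno-miR-195 (1.35) and rno-miR-322 (1.99). The median was 0.97 beside -0.24 (70 rose and 208 fell over all tested). rno-miR-503 was detected on 4 of 6 fat arrays but on only 19 of the 159 arrays of other organs. Its fat difference therefore has no measured size and is only a bound. The median rests in part on it. White minus brown adipose tissue called 0 of these 6 higher and 3 lower, with rno-miR-322 at -1.63, beside 22 and 59 over all 345. In liver 3 rose and 0 fell, which were rno-miR-195 (0.80), rno-miR-497 (0.79) and rno-miR-322 (0.63), with a median of 0.34 beside -0.23 (71 rose and 189 fell over all tested).

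At the scaling used here a list of 20 miRNAs linked to metabolism was read in the same comparisons, and 19 of them were tested. Some of them were not detected in a tissue and lay at the floor there, so they count as called but have no measured size. In liver 11 were higher and 7 lower than in the other organs (median 0.34), beside 71 higher and 189 lower over all 345 tested (median -0.23). The 11 include rno-miR-33 (0.50), which was detected on 0 of 3 liver arrays although it lay above the floor. The lowest were rno-miR-375, a miRNA of endocrine cells, detected on 0 of 3 liver arrays, and rno-miR-34a (-1.38), and the highest were rno-miR-193 (3.75) and rno-miR-122, the main miRNA of hepatocytes, which was detected on 2 of the 162 arrays of other organs. In fat 10 were higher and 8 lower (median 0.32), beside 70 and 208 over all tested (median -0.24). The lowest, rno-miR-375 and rno-miR-130b, were detected on 0 of 6 fat arrays. The highest were rno-miR-365 (3.26) and rno-miR-193 (4.48), both known from brown fat. White minus brown adipose tissue called 4 of the 19 higher and 7 lower, beside 22 and 59 over all tested. rno-miR-365 stood at -1.46 and rno-miR-193 at -2.84 in it, so the pooled fat values join 2 fats that differed. In skeletal muscle 8 were higher and 10 lower (median -0.26), beside 76 and 225 (median -0.24). The lowest were rno-miR-29b (-2.42) and rno-miR-375, detected on 0 of 9 muscle arrays, and the highest were rno-miR-378 (2.84) and its other strand rno-miR-378* (3.62), which come from the gene of the coactivator PGC-1β. In brain 6 were higher and 11 lower (median -0.27), beside 137 and 192 (median -0.15). The lowest, rno-miR-193 and rno-miR-375, were detected on 2 and 1 of 15 brain arrays, and the highest were rno-miR-34a (1.74) and rno-miR-335 (2.46). rno-miR-122 was detected on 0 arrays of fat, skeletal muscle and brain and is among those called lower there, against a mean of organs that holds liver. The list medians of skeletal muscle (-0.26) and brain (-0.27) equal its values there, so they are not read as a shift of the list.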

How the data were processed

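The authors labelled 0.1 µg of RNA per sample with Cy3, hybridized it to a custom 1-color rat array with probes for miRBase 15 and 16, and deposited the scanner output of Agilent Feature Extraction 10.7.3 (per the labels), in which each spot has a background-corrected signal intensity, together with a table of normalized intensities that follow the authors' scaling to the 75th percentile. Its values are proportional, array by array, to the total signal that the scanner software gives each miRNA (factors of 0.411 to 10.46), and they served as an alternative.

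From the deposited intensities, spots marked as outliers (1.63 to 6.42% per array) were dropped, and each miRNA took the mean of its probe sequences, themselves means of their remaining spots. Each array was then scaled by the 75th percentile of 37 miRNAs (those that all 180 arrays detected), raised to a floor of 10.8 where lower, and put on the log2 scale. limma 3.58.1 in R 4.3.3 was fitted with 1 term per organ over miRNAs that passed detection in all 3 rats for 1 organ or more, with Benjamini-Hochberg adjustment over all of them and calls at an adjusted p under 0.05. Single values were tested by permutation in Python 3.11.15 with numpy 2.4.6, pandas 2.3.3 and scipy 1.17.1. Figures were drawn with matplotlib 3.10.9. The number of arrays limits the precision. The limma contrasts and the permutation test were tested on simulated data.

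Arrays with one number come from one rat, so numbers pair organs. Deviations from the organ means correlated by 0.0496 on average between arrays of one rat (0.171 on a shared slide, 0.0321 otherwise) and by -0.0246 between rats. For 8 arrays the labels give 2 rat numbers; the title was used, and an alternative left them out. The 180 arrays lay on 23 slides scanned on 3 days, and slides held several organs of mostly one rat.

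The members, lists and tests were chosen with earlier results of these data known. The text names the members, their opposite strands, and the 5 most and 2 least similar miRNAs. From each list it names the 2 highest and 2 lowest called differences in 4 tissues, and rno-miR-33 for its detection in liver. For white minus brown adipose tissue it names some of the miRNAs already named for fat. Normexp was run on median spot signals, since the mean signals planned for it are not among the columns used here. Total gene signal, median over spots, brightest probe sequence, other filters, other floors, blocks and left-out rats were further alternatives.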

Additional observations from a re-analysis of the deposited data

Results flagged for a closer look

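The gap between the members differed between organs. Over the 55 organs of perfused rats, log2 rno-miR-107 minus log2 rno-miR-103 gave a permutation F of 27.6, and the Harderian gland (1.89 above the median organ) and brown adipose tissue (0.96) lay farthest from the others in 3 of 3 rats each. No other pair of miRNAs was tested for such a gap, so the F does not set this pair apart. Groups of 3 rats are too small for a check of single outlying samples, so none was made.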

How the results depend on the processing

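Brain and skeletal muscle against the other organs kept direction and call under all 25 alternatives for both members, as did fat for rno-miR-107 (0.39 to 1.33). All values below are log2 differences, given for rno-miR-103 first where both members are named, and the cause of each change was not tested. With the 75th percentile over all miRNAs, heart against the other organs was 0.53 and 0.94, fat minus brain 0.63 and 1.13, cerebellum minus cerebral cortex 0.65 and 0.71, thalamus minus cortex -0.38 and -0.44, soleus minus gastrocnemial muscle 0.37 and 0.30, and perfusion in lung 0.06 and 0.13. Under this scaling rno-miR-107 in liver was -0.25, and rno-miR-103 was -0.07 in medulla oblongata minus cortex and 0.42 in white minus brown adipose tissue. In the authors' table the same comparisons gave 0.34 and 0.71 for heart, 0.44 and 0.93 for fat minus brain, 0.33 and 0.39 for cerebellum, -0.34 and -0.40 for thalamus, 0.20 and 0.13 for soleus, and for rno-miR-107 -0.18 in liver, 0.03 for perfusion in lung and 0.01 for perfusion over 5 organs. For rno-miR-103 that table gave 0.43 for white minus brown, and 0.04 and 0.00 for perfusion in septum and kidney. Without scaling, liver minus skeletal muscle was -0.81 and -0.70, cerebellum 0.43 and 0.49, thalamus -0.03 and -0.09, soleus 0.66 and 0.59, white minus brown 1.04 for rno-miR-103, medulla -0.05 for rno-miR-103, and for rno-miR-107 heart was -0.10 and perfusion was -0.04 in septum and 0.05 in lung. With quantile normalization, thalamus was -0.05 and -0.12, soleus 0.05 and 0.06, rno-miR-107 in heart -0.11, and perfusion of rno-miR-107 0.05 in atrium and 0.04 in lung. For rno-miR-103 it gave medulla -0.38, white minus brown 0.62 and perfusion in lung 0.05. Scaling by total signal gave soleus 0.43 and 0.36, white minus brown 0.26 for rno-miR-103, and perfusion in septum -0.01 for rno-miR-107, as did the brightest probe sequence (-0.01). The normexp background gave liver -0.26 and -0.19, and for rno-miR-103 fat 0.08 and perfusion in liver 0.00. With slide as a fixed block, rno-miR-103 was 0.25 in fat, -0.19 in heart minus skeletal muscle, -0.01 in liver minus skeletal muscle, -0.07 in medulla, 0.04 in white minus brown, and 0.02 and 0.01 for perfusion in septum and lung, and rno-miR-107 was -0.02 for perfusion in septum.

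Leaving out 1 rat at a time gave -0.02 to 0.08 and -0.25 to 0.01 for medulla minus cortex, -0.16 to 0.01 and -0.07 to 0.07 for perfusion in septum, -0.15 to 0.02 in atrium and -0.11 to 0.05 in lung for rno-miR-107, and -0.07 to 0.02 for white minus brown of rno-miR-103. With rat as a replicate block, which pairs the organs of one animal, no call of a member changed. The F over 55 organs was then 80.7 and 67.6, and that of the gap between the members, permuted within rats, stayed at 27.6. The F of the gap fell to 6.24 with the total gene signal and to 2.39 in the authors' table (permutation p = 0.0005), and it was 27.6 in both without pancreas, an alternative added after seeing the data. Scan day as a block, leaving out pancreas or the Harderian gland, the exact test on rat means and the split of fat were also added then. Scaling without the members equalled the main setting, since neither was among the 37 miRNAs. Signals close to background limit the values in pancreas, and dim liver arrays those in liver.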
